A study of Mus musculus with 4 samples.

Results

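The macrophage and myeloid genes described here are 10 genes, Lyz2, Csf1r, Fcer1g, Tyrobp, Cd68, Cx3cr1, Itgam, Itgax, C1qa and C1qb, taken as a set of known markers of macrophages and other myeloid cells. Every probe set named for 1 of them alone was used, which gave 15 of the 45037 probe sets of the table, among 18193 genes in all. The arrays held RNA of epithelial cells loosened with EDTA from the small intestine and picked under a stereomicroscope. Of the 4 arrays, 2 were labelled AP-1B-/- and 2 AP-1B+/-, all from healthy adult C57BL/6J mice of 10 weeks kept specific pathogen-free. AP-1B is the epithelial clathrin adaptor that directs membrane proteins to the basolateral side, and the comparison asks what its loss does to gene expression in this epithelium. The labels state neither how many mice gave each array nor which part of the gene was removed. A p-value here thus covers array-to-array spread alone, part of which may be technical. The arrays of each label differed in the sex pattern given below, so they did not come from the same mice. No wild-type array was analysed here.

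Macrophages sit in the lamina propria just under the intestinal epithelium, where they clear microbes and dying cells and help to keep T cells and the barrier in balance. They depend on the receptor CSF1R for survival, sense the epithelial and neuronal chemokine fractalkine through CX3CR1, and bind opsonised targets through the integrins CD11b and CD11c and through Fc receptors. Many of their receptors have no signalling tail and borrow the adaptors DAP12 (Tyrobp) or the Fc receptor gamma chain (Fcer1g), which carry an ITAM that recruits the kinase SYK. Resident macrophages are also a main source of C1q, the recognition part of the classical complement pathway. Epithelial markers were bright on every array, with Alpi, intestinal alkaline phosphatase, at 590 and 485 on the arrays labelled AP-1B-/- and 588 and 539 on those labelled AP-1B+/- (multiples of the array median, the unit of every signal here). The labelled cell type was thus present by its markers. Fabp2, the intestinal fatty acid binding protein, had 578 and 461 on the arrays labelled AP-1B-/-, against 596 and 538 on those labelled AP-1B+/-.

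Ap1m2, which encodes the mu1B subunit of AP-1B, went against the label on 2 of the 4 arrays. Its signal was 2.49 on AP-1B-/- 1 and 22.3 on AP-1B-/- 2, against 19.9 on AP-1B+/- 1 and 4.33 on AP-1B+/- 2. It was thus 8.95 times as high on AP-1B-/- 2 as on AP-1B-/- 1, and 4.59 times as high on AP-1B+/- 1 as on AP-1B+/- 2. Arrays are called by label and number throughout, and a direction between labels is that of the labels alone. The sex of the mice also differed between arrays. Xist, the transcript of the silenced X chromosome, had 0.070 and 60.1 on AP-1B-/- 1 and 2, against 0.349 and 30.3 on AP-1B+/- 1 and 2, and the Y-linked Eif2s3y had 24.1 and 0.051 on AP-1B-/- 1 and 2, against 12.1 and 0.256 on AP-1B+/- 1 and 2. Both arrays numbered 1 thus had a male pattern and both numbered 2 a female one, and each sex was found among the arrays with more Ap1m2 as among those with less. The arrays also differed in scale, with a 75th percentile of 5.57 and 4.27 on AP-1B-/- 1 and 2 and of 4.13 and 5.54 on AP-1B+/- 1 and 2.

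Csf1r, the receptor for CSF1 and IL-34 on which macrophages depend, had 3 probe sets. The brightest of them (1419872_at) had 3.89 and 8.19 on AP-1B-/- 1 and 2, against 22.7 and 3.26 on AP-1B+/- 1 and 2. AP-1B+/- 1 stood 2.77 times above the next array, and the labelled groups overlapped. Probe set 1419873_s_at had 2.48 and 3.50 on AP-1B-/- 1 and 2, against 8.27 and 1.28 on AP-1B+/- 1 and 2, in the same order of arrays. Probe set 1423593_a_at had 2.46 and 3.18 on AP-1B-/- 1 and 2, against 5.06 and 2.92 on AP-1B+/- 1 and 2. It spanned 2.05-fold from lowest to highest, where the others spanned 6.95-fold and 6.44-fold, so the probe sets of Csf1r gave the same highest array but different sizes.

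Cx3cr1, the fractalkine receptor that marks resident intestinal macrophages, was dim. Its kept probe set (1450020_at) had 1.79 and 1.64 on AP-1B-/- 1 and 2, against 2.23 and 0.525 on AP-1B+/- 1 and 2. The other (1450019_at), with 0.089 and 0.248 on AP-1B-/- 1 and 2 against 0.153 and 0.579 on AP-1B+/- 1 and 2, lay below the array median on every array and below the filter on low values. The probe sets of this gene disagreed, since AP-1B+/- 2 was lowest by the first and highest by the second. Among the ligands of these receptors, Csf1 had 1.02 and 2.26 on AP-1B-/- 1 and 2, against 1.95 and 0.993 on AP-1B+/- 1 and 2, by its only kept probe set of 4. Il34 had 1.34 and 1.21 on the arrays labelled AP-1B-/-, against 0.774 and 1.09 on those labelled AP-1B+/-. Fractalkine itself, Cx3cl1, lay above the array median on every array by its brightest probe set, with 13.5 and 17.0 on the arrays labelled AP-1B-/- and 12.9 and 22.2 on those labelled AP-1B+/- (1415803_at). Kitl, stem cell factor, had 43.8 and 14.6 on AP-1B-/- 1 and 2, against 19.4 and 26.5 on AP-1B+/- 1 and 2. None of the 6 kept genes of the ligand list passed the test in either direction.

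The ITAM adaptors differed widely between arrays. Fcer1g, the common gamma chain of activating Fc receptors, had 0.107 on AP-1B-/- 1 and 4.92 on AP-1B-/- 2, against 8.33 on AP-1B+/- 1 and 2.66 on AP-1B+/- 2. Its signal on AP-1B-/- 1 was far under the array median, and the range from lowest to highest was 77.8-fold, a ratio that rests on that dim value. Tyrobp, the adaptor DAP12 of TREM2 and many myeloid receptors, had 1.62 and 10.6 on AP-1B-/- 1 and 2, against 16.5 and 4.31 on AP-1B+/- 1 and 2, a 10.2-fold range. Both adaptors are also used by natural killer and some intraepithelial T cells. Trem2 did not reach the filter on low values, with its brighter probe set (1421226_at) at 0.953 and 0.221 on the arrays labelled AP-1B-/- and 0.147 and 0.704 on those labelled AP-1B+/-. Downstream of the adaptors, Blnk, a scaffold of SYK signalling, had 59.9 and 18.3 on AP-1B-/- 1 and 2, against 19.0 and 45.9 on AP-1B+/- 1 and 2. Plcg2, the phospholipase that SYK activates, had 15.8 and 11.7 on the arrays labelled AP-1B-/-, against 11.9 and 16.9 on those labelled AP-1B+/-. As deposited, AP-1B-/- 1 and AP-1B+/- 2 were the high arrays for both. After quantile normalization this held for Blnk but not for Plcg2, which then had 13.5 and 14.2 on the arrays labelled AP-1B-/-, against 14.9 and 14.1 on those labelled AP-1B+/-, in the order of Fcer1g. Of the 10 kept genes of this signalling list, 0 passed the test. Lower values on the arrays labelled AP-1B-/- were found for 7 of the 10, against 49.3% of all kept probe sets.

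The chains of C1q had a common pattern, with AP-1B+/- 1 highest and AP-1B-/- 2 next. C1qa had 0.537 on AP-1B-/- 1 and 5.12 on AP-1B-/- 2, against 8.07 on AP-1B+/- 1 and 1.97 on AP-1B+/- 2. C1qb (1417063_at) had 1.46 and 4.81 on AP-1B-/- 1 and 2, against 8.42 and 1.96 on AP-1B+/- 1 and 2. The labelled groups overlapped for both. The other probe sets of C1qb had 1.79 and 5.73 on AP-1B-/- 1 and 2, against 7.40 and 1.59 on AP-1B+/- 1 and 2 (1434366_x_at), and 1.49 and 3.89 on AP-1B-/- 1 and 2, against 4.90 and 1.47 on AP-1B+/- 1 and 2 (1437726_x_at). By these, AP-1B-/- 1 and AP-1B+/- 2 were nearly level. C1qc, the third chain and no member of the set, had 0.893 and 4.45 on AP-1B-/- 1 and 2, against 5.51 and 1.26 on AP-1B+/- 1 and 2, again with AP-1B+/- 1 highest and AP-1B-/- 1 lowest. The brightest of the other complement genes had another order, with Cd55, a decay-accelerating factor, at 22.9 and 21.2 on the arrays labelled AP-1B-/- and 27.1 and 32.4 on those labelled AP-1B+/-. Cfb, factor B of the alternative pathway, had 17.7 and 17.9 on the arrays labelled AP-1B-/-, against 15.8 and 23.3 on those labelled AP-1B+/-. After quantile normalization Cd55 had 19.5 and 26.1 on AP-1B-/- 1 and 2, against 33.6 and 26.7 on AP-1B+/- 1 and 2. Cfb then had 15.1 and 21.7, against 19.9 and 19.3. On that scale 5 of the 6 kept complement genes were higher on the array with more Ap1m2 within both labels (30.9% of all probe sets). As deposited 1 was so (15.3% of all). None of the 6 kept complement genes passed the test.

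The integrin chains were near the array median. Itgax, CD11c of macrophages and dendritic cells, had 0.926 and 2.13 on AP-1B-/- 1 and 2, against 3.38 and 0.970 on AP-1B+/- 1 and 2, so that both lower arrays lay just under the median. Itgam, CD11b, had 0.831 and 0.826 on AP-1B-/- 1 and 2, against 1.03 and 0.395 on AP-1B+/- 1 and 2, and did not reach the filter. Itgb2, the beta2 chain that pairs with both and with the lymphocyte integrin LFA-1, had 0.710 and 2.89 on AP-1B-/- 1 and 2, against 5.01 and 1.33 on AP-1B+/- 1 and 2. It had the order of arrays that Itgax had, with a wider range. Fermt3, kindlin-3 of blood cells, had 1.16 and 2.80 on AP-1B-/- 1 and 2, against 4.64 and 1.97 on AP-1B+/- 1 and 2. Tln1, talin, which all cells use, had 16.2 and 12.7 on the arrays labelled AP-1B-/-, against 13.0 and 19.5 on those labelled AP-1B+/-. After quantile normalization Tln1 had 13.8 and 15.4 on AP-1B-/- 1 and 2, against 16.3 and 16.2 on AP-1B+/- 1 and 2. None of the 6 kept integrin partners passed the test.

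Of the lysosomal and granule markers, Cd68, a glycoprotein of macrophage lysosomes, had 0.745 and 1.28 on AP-1B-/- 1 and 2, against 2.19 and 1.16 on AP-1B+/- 1 and 2. The range was 2.94-fold, and AP-1B+/- 1 stood above 3 arrays that were close to the median. Lyz2, the lysozyme of macrophages, had 20.8 and 15.6 on AP-1B-/- 1 and 2, against 41.95 and 18.1 on AP-1B+/- 1 and 2. It was the only kept member probe set with its lowest value on AP-1B-/- 2. Lyz1, the near-identical lysozyme gene of Paneth cells, had 381 and 150.1 on AP-1B-/- 1 and 2, against 512 and 248 on AP-1B+/- 1 and 2 (1439426_x_at). Probe set 1436996_x_at of Lyz1 had 389 and 161 on AP-1B-/- 1 and 2, against 499 and 231 on AP-1B+/- 1 and 2. A far dimmer kept probe set of Lyz1 (1450822_at) had 3.95 and 2.49, against 4.50 and 3.58. It had the same order of arrays but a range of only 1.81-fold. The order of the arrays was the same for Lyz2, Lyz1 and the Paneth lectin gene Itln1, which had 79.8 and 40.5 on AP-1B-/- 1 and 2, against 113.7 and 53.4 on AP-1B+/- 1 and 2. As deposited, all 4 measured Paneth cell genes had that order, which 1.08% of kept probe sets shared, and 2 of the 4 had it after quantile normalization. How much of the Lyz2 signal came from Lyz1 transcripts was not tested, and Lyz2 is uncertain as a myeloid measure here. After quantile normalization Lyz2 no longer kept the order, with 17.7 and 18.96 on AP-1B-/- 1 and 2, against 51.6 and 15.1 on AP-1B+/- 1 and 2.

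**Figure D1:**
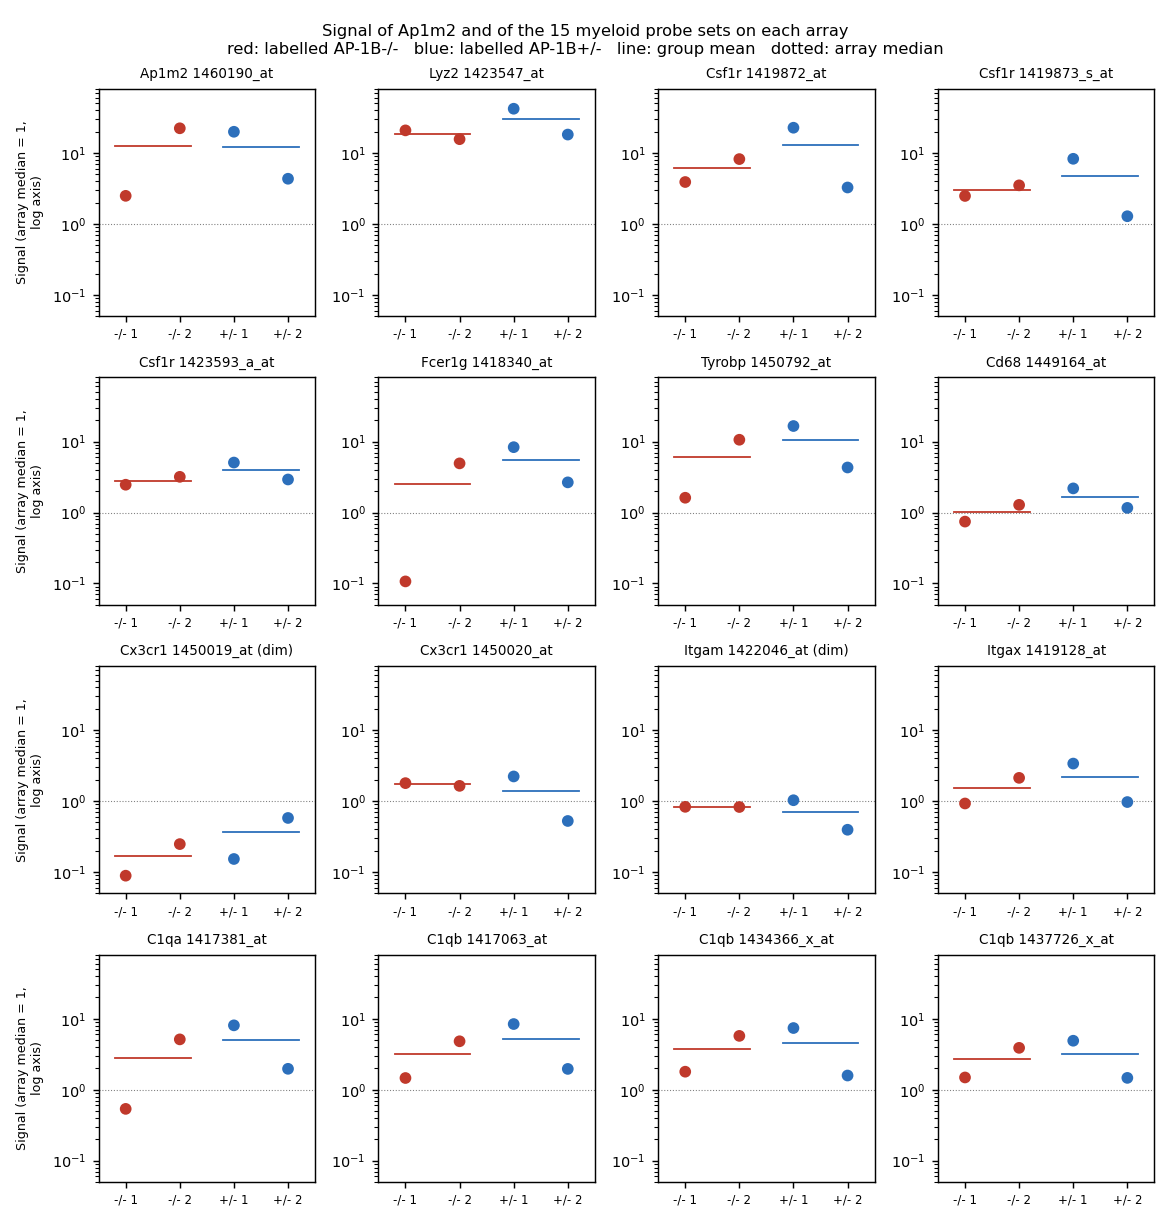
Signal of Ap1m2 and of the 15 member probe sets on each array (log axis, array median = 1), with arrays labelled AP-1B-/- in red on the left and AP-1B+/- in blue on the right, lines at the group means (n = 2 each), and probe sets below the filter marked dim. AP-1B+/- 1 is the highest array in 14 of the 15 member panels, and Fcer1g on AP-1B-/- 1, at 0.107, is far below the other values of that gene.

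Set together, most members divided the arrays in the same way. AP-1B+/- 1 was the highest array for all 13 kept member probe sets, against 12.6% of all 22519 kept probe sets, and for 14 of all 15. AP-1B-/- 1 was the lowest for 7 of the 13, against 21.1% of all. The full order of AP-1B+/- 1, AP-1B-/- 2, AP-1B+/- 2 and AP-1B-/- 1, from high to low, was found for 7 of the 13, against 4.39%. Those were Fcer1g, Tyrobp, Cd68, Itgax, C1qa and 1 probe set each of Csf1r and C1qb. After quantile normalization, the counts were 13, 7 and 7 of 13, against 24.0%, 32.8% and 9.77% of all. By the brightest probe set of each gene, 5 of the 10 genes lay under the array median on AP-1B-/- 1 and 1 on AP-1B-/- 2, against 0 on AP-1B+/- 1 and 3 on AP-1B+/- 2. The summed signal of the 9 genes with a kept probe set was 31.9 and 54.3 on AP-1B-/- 1 and 2, against 113.8 and 34.97 on AP-1B+/- 1 and 2, a 3.57-fold range. Without Lyz2, the sum was 11.1 and 38.7 on AP-1B-/- 1 and 2, against 71.8 and 16.8 on AP-1B+/- 1 and 2, a 6.48-fold range. Fewer myeloid cells and less of these transcripts per cell cannot be told apart in such bulk RNA.

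By label, no member passed the test. By limma with Benjamini-Hochberg adjustment, 0 of the 13 kept member probe sets passed the threshold, as did 0 of all 22519 (0.00%), each member having an adjusted p of 0.999868. Without adjustment, p lay under 0.05 at 0 member probe sets and at 170 of all (0.755%). The largest log2 differences, AP-1B-/- minus AP-1B+/- by label, were −1.76 with a standard error of 0.90 for Fcer1g, −1.02 with 0.78 for C1qa and −0.94 with 0.78 for Tyrobp. Fcer1g averaged 2.52 ± 3.41 on the arrays labelled AP-1B-/- and 5.49 ± 4.01 on those labelled AP-1B+/- (SD, n = 2 each). C1qa averaged 2.83 ± 3.24 and Tyrobp 6.11 ± 6.35 on the arrays labelled AP-1B-/-, against 5.02 ± 4.31 and 10.4 ± 8.65 on those labelled AP-1B+/-. The standard deviation within a label was thus about as large as the mean. The single positive value among kept probe sets was that of Cx3cr1, 0.47 with a standard error of 0.54.

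The sign of these differences turned on single arrays. Over the kept member probe sets, 12 of 13 had lower values on the arrays labelled AP-1B-/-, against 49.3% of all, with a median log2 difference of −0.56, against 0.0055 over all kept probe sets. Over all 15, 13 were lower. The labelled groups overlapped at all 15, while 10.7% of all kept probe sets were lower and 6.56% higher without overlap. Without AP-1B-/- 1 the member median was 0.16 and 4 of 13 were lower, and without AP-1B+/- 1 it was 0.41 with 6 of 13 lower. Without AP-1B-/- 2 it was −0.86 with 12 of 13 lower, and without AP-1B+/- 2 it was −1.20 with 13 of 13 lower. Without AP-1B-/- 2, which leaves AP-1B-/- 1 alone under its label, the log2 differences were −3.57 for Fcer1g, −2.35 for C1qa and −2.19 for Tyrobp. On quantile-normalized values they were −3.65, −2.47 and −2.31. That of Fcer1g rests on a dim signal of 0.107 on AP-1B-/- 1. With both arrays whose Ap1m2 signal went against the label left out, AP-1B-/- 1 was lower than AP-1B+/- 1 at all 13 kept probe sets, as at 31.2% of all, with a median log2 difference of −1.62 between these single arrays.

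**Figure D2:**
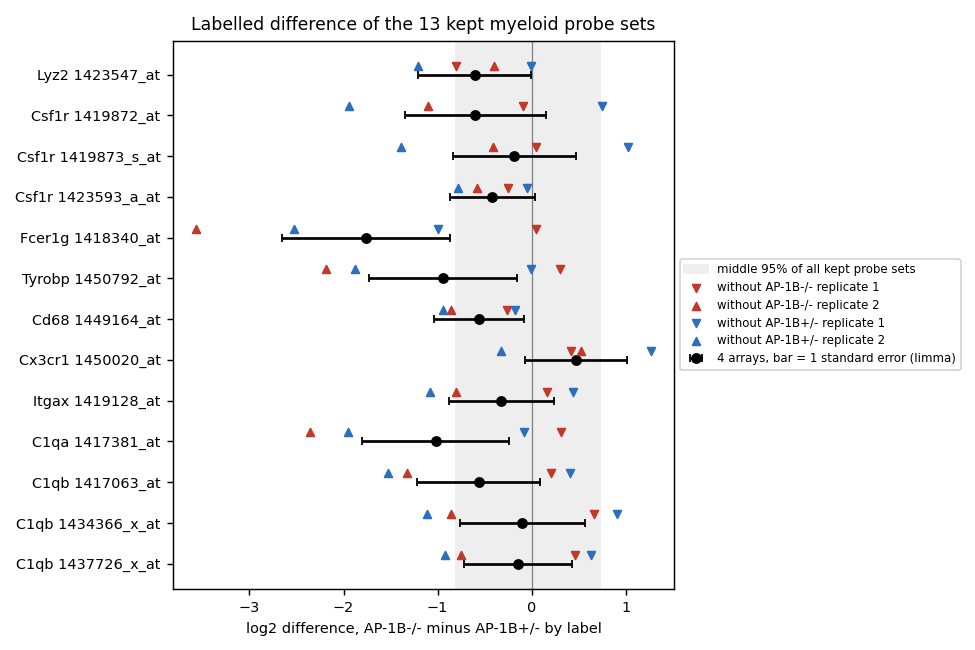
Log2 difference, AP-1B-/- minus AP-1B+/- by label, of the 13 kept member probe sets (black points, bars of 1 standard error from limma), with triangles for the value after leaving out 1 array and a grey band for the middle 95% of all kept probe sets (−0.81 to 0.73). The triangles of Fcer1g range from −3.57 to 0.047 and those of C1qa from −2.35 to 0.31.

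Within each label, the array with more Ap1m2 signal had more myeloid signal at most members. On the log2 scale, AP-1B-/- 2 minus AP-1B-/- 1 was 3.61 for Fcer1g, 2.66 for C1qa, 2.50 for Tyrobp and 1.53 for C1qb (1417063_at). AP-1B+/- 1 minus AP-1B+/- 2 was 1.54, 1.87, 1.86 and 1.94 for the same genes in that order. Itgax had 0.97 between the arrays labelled AP-1B-/- and 1.52 between those labelled AP-1B+/-, and Cd68 had 0.59 between the arrays labelled AP-1B-/- and 0.76 between those labelled AP-1B+/-. Csf1r had 1.01, 0.45 and 0.33 between the arrays labelled AP-1B-/- and 2.68, 2.42 and 0.73 between those labelled AP-1B+/-, by its probe sets in the order above. The exceptions among kept probe sets were Lyz2, with −0.40 between the arrays labelled AP-1B-/- and 1.19 between those labelled AP-1B+/-, and Cx3cr1, with −0.11 between the arrays labelled AP-1B-/- and 1.59 between those labelled AP-1B+/-. Each of these is a difference of 2 single arrays and has no replicate check.

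In counts, 11 of the 13 kept member probe sets were higher on the array with more Ap1m2 within both labels, against 15.3% of all kept probe sets, and 8 of 13 were at least 2-fold higher within both, against 2.00%. AP-1B-/- 2 was at least 2-fold above AP-1B-/- 1 at 8 of 13, against 7.86%, and AP-1B+/- 1 at least 2-fold above AP-1B+/- 2 at 11 of 13, against 4.47%. At the 11 that were higher within both labels, AP-1B-/- 1 and AP-1B+/- 2 both lay below the other 2 arrays, against 11.7% of all. The full order of the Ap1m2 signal, with AP-1B-/- 2 highest, was found at 0 of 13, against 3.45%. Median log2 differences over the members were 1.01 between the arrays labelled AP-1B-/- and 1.59 between those labelled AP-1B+/-, against −0.33 and −0.40 over all kept probe sets. Quantile normalization took the medians over all probe sets to −0.021 and −0.033 and gave 1.39 and 1.91 for the members. On that scale 12 of 13 were higher within both labels, against 30.9%, and 8 of 13 at least 2-fold, against 3.19%.

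**Figure D3:**
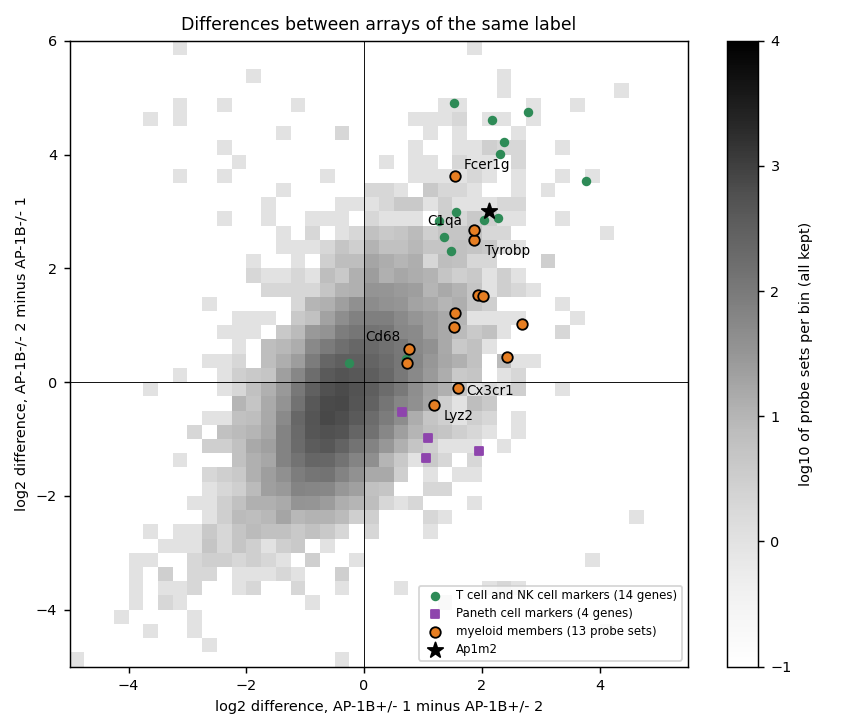
Log2 difference between the 2 arrays labelled AP-1B+/- (x axis) against that between the 2 arrays labelled AP-1B-/- (y axis), for all kept probe sets in grey bins (a few lie outside the axes), the 13 kept member probe sets in orange, T cell and NK cell markers in green, Paneth cell markers in purple and Ap1m2 as a star. The members lie right of 0 on the x axis, with Lyz2 at −0.40 and Cx3cr1 at −0.11 on the y axis below the rest.

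Other phagocyte genes and other immune cell types varied between the arrays too, and their part in the member signals was not tested. A list of 32 further markers of mononuclear phagocytes had 22 kept genes. Of these, 15 were higher on the array with more Ap1m2 within both labels, against 15.3% of all kept probe sets. The member order of arrays given above was found for 11 of the 22, against 4.39%. Adgre1, the F4/80 antigen, had 1.31 and 2.68 on AP-1B-/- 1 and 2, against 4.84 and 2.34 on AP-1B+/- 1 and 2. After quantile normalization these counts of the list were 18 and 13 of 22, against 30.9% and 9.77% of all kept probe sets. Cd14 and Cebpa went the other way within both labels, as deposited and after quantile normalization. As deposited, Cd14 had 6.86 and 3.10 on AP-1B-/- 1 and 2, against 2.08 and 5.90 on AP-1B+/- 1 and 2. Cebpa had 18.8 and 12.8 on AP-1B-/- 1 and 2, against 7.46 and 20.1 on AP-1B+/- 1 and 2. The brightest genes of the list are Ctss and Mertk. Cathepsin S, Ctss, had 68.1 and 97.3 on the arrays labelled AP-1B-/-, against 115.9 and 112.0 on those labelled AP-1B+/-. Mertk, a receptor for the uptake of dying cells, had 15.1 and 30.4 on the arrays labelled AP-1B-/-, against 36.2 and 40.9 on those labelled AP-1B+/-. As deposited, these 2 were among 4 of the 22 with both arrays labelled AP-1B-/- below both labelled AP-1B+/-, where 10.7% of all kept probe sets were so. After quantile normalization 2 of the 22 were so, against 11.0% of all. Ctss then had 58.9 and 116.3 on the arrays labelled AP-1B-/-, against 134.1 and 94.9 on those labelled AP-1B+/-, and Mertk had 12.9 and 37.3 on the arrays labelled AP-1B-/-, against 44.9 and 33.8 on those labelled AP-1B+/-, so both overlapped and took the order seen for Fcer1g. None of the 22 passed the test in either direction (median log2 difference −0.42).

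The T cell and NK cell list had the larger differences between arrays. Its 14 kept genes of 18 measured summed to 19.0 and 318 on AP-1B-/- 1 and 2, against 505 and 113 on AP-1B+/- 1 and 2. The order of arrays seen for Fcer1g was found for 11 of the 14, against 4.39% of all kept probe sets. After quantile normalization it was found for 12, against 9.77% of all. Granzyme A, Gzma, had 5.79 and 149 on AP-1B-/- 1 and 2, against 244 and 53.8 on AP-1B+/- 1 and 2. The chemokine Ccl5 had 2.01 and 61.8 on AP-1B-/- 1 and 2, against 93.2 and 13.3 on AP-1B+/- 1 and 2. The median log2 difference of the list was 2.94 between AP-1B-/- 2 and AP-1B-/- 1 and 1.80 between AP-1B+/- 1 and AP-1B+/- 2, where the members, each by its brightest kept probe set (9 genes), had medians of 1.01 and 1.59. Since NK and T cells can use Fcer1g and Tyrobp, these 2 are not markers of myeloid cells alone.

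The remaining lists did not share one order, and no gene of any of them passed the test. B and plasma cell genes (8 kept) summed to 277 and 249.995 on AP-1B-/- 1 and 2, against 630 and 247 on AP-1B+/- 1 and 2. Jchain, the joining chain of IgA, had 34.1 and 39.6 on the arrays labelled AP-1B-/-, against 205 and 34.9 on those labelled AP-1B+/-, and Igha, the IgA heavy chain, had 237 and 199 on the arrays labelled AP-1B-/-, against 413 and 204 on those labelled AP-1B+/-. AP-1B+/- 1 alone was high for both. Of 9 measured dendritic cell genes, 2 were kept, and both had the order of arrays seen for Fcer1g, as Siglecf did. That order was shared by 4.39% of all kept probe sets. Ly75 had 2.92 and 9.70 on the arrays labelled AP-1B-/-, against 11.9 and 9.51 on those labelled AP-1B+/-, and Cd83 had 0.742 and 1.67 on the arrays labelled AP-1B-/-, against 1.97 and 1.61 on those labelled AP-1B+/-. Granulocyte genes were dim, with 3 of 12 measured kept. Siglecf, a lectin of eosinophils, had 0.676 and 3.34 on the arrays labelled AP-1B-/-, against 4.55 and 1.85 on those labelled AP-1B+/-, and Mpo, myeloperoxidase, had 1.09 and 1.51 on the arrays labelled AP-1B-/-, against 0.208 and 1.36 on those labelled AP-1B+/-. Of the 4 kept mast cell genes, the mucosal proteases Mcpt1 and Mcpt2 had both arrays labelled AP-1B-/- below both labelled AP-1B+/-, as 10.7% of all kept probe sets did. Mcpt1 had 0.768 and 0.558 on the arrays labelled AP-1B-/-, against 4.14 and 2.31 on those labelled AP-1B+/-, and Mcpt2 had 2.60 and 1.27 on the arrays labelled AP-1B-/-, against 5.05 and 4.57 on those labelled AP-1B+/-. The other 2, Kit and Gata2, overlapped, with log2 differences of 0.35 and 0.56. Epithelial markers summed to 3547 and 2591 on AP-1B-/- 1 and 2, against 3034 and 3272 on AP-1B+/- 1 and 2 as deposited. After quantile normalization the sums were 3009 and 3085 on AP-1B-/- 1 and 2, against 3093 and 3267 on AP-1B+/- 1 and 2. Within both labels and on both scales, Epcam, Cdh1, Krt8 and Lgals4 were lower on the array with more Ap1m2. Vil1 and Krt20 were so as deposited only, and Alpi and Fabp2 on neither scale. Over all kept probe sets, the deposited median log2 differences were also negative, −0.33 between the arrays labelled AP-1B-/- and −0.40 between those labelled AP-1B+/-. Of the 8 epithelial genes, 0 were higher on the array with more Ap1m2 within both labels (15.3% of all probe sets), and 3 after quantile normalization (30.9%). As deposited, Epcam had 295 and 184 on AP-1B-/- 1 and 2, against 174 and 275 on AP-1B+/- 1 and 2. Cdh1 had 219 and 145 on AP-1B-/- 1 and 2, against 157 and 266 on AP-1B+/- 1 and 2. Stromal and muscle genes summed to 11.2 and 8.91 on the arrays labelled AP-1B-/-, against 9.13 and 6.85 on those labelled AP-1B+/-. Col3a1, a fibroblast collagen, had 6.08 and 3.52 on the arrays labelled AP-1B-/-, against 5.28 and 4.19 on those labelled AP-1B+/-, and Actg2, a smooth muscle actin, had 1.92 and 2.58 on the arrays labelled AP-1B-/-, against 0.952 and 0.971 on those labelled AP-1B+/-.

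**Figure D4:**
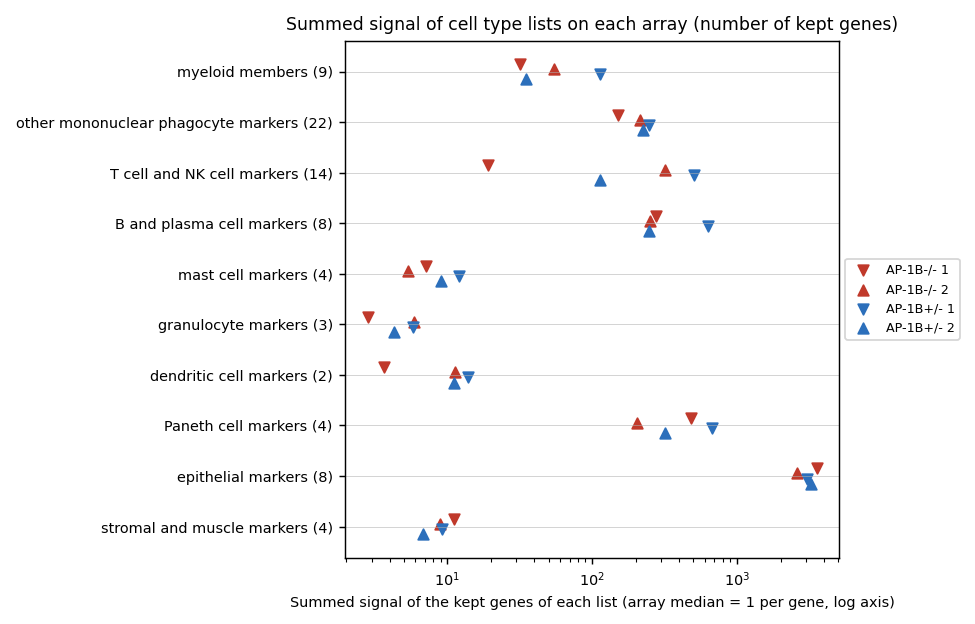
Summed signal of the kept genes of 10 cell type lists on each array (log axis), with arrays labelled AP-1B-/- in red and AP-1B+/- in blue, triangles down for replicate 1 and up for replicate 2, and the number of kept genes in brackets. The myeloid members, Lyz2 included, span 31.9 to 113.8, T cell and NK cell markers 19.0 to 505, and epithelial markers 2591 to 3547.

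The genes most like the members were found by distance. Each member's log2 values were centred on their own mean, and the median over 9 genes, each by its brightest kept probe set, was −0.81 and 0.32 on AP-1B-/- 1 and 2, against 1.25 and −0.46 on AP-1B+/- 1 and 2. Among the members, C1qb (1417063_at) lay nearest to it, at a root mean square distance of 0.18 over the 4 arrays, and Fcer1g farthest, at 1.05. Of the other named probe sets, the 5 nearest genes were Clec7a, the beta-glucan receptor dectin-1, Apoe, the apolipoprotein that macrophages also secrete, the immunoglobulin segment gene Igkv9-120, Ms4a7, a membrane protein of macrophages, and Acot12, an acyl-CoA thioesterase, at 0.12 to 0.13. Clec7a had 0.965 and 2.60 on AP-1B-/- 1 and 2, against 4.41 and 1.34 on AP-1B+/- 1 and 2, and Ms4a7 had 1.14 and 3.26 on AP-1B-/- 1 and 2, against 5.29 and 1.64 on AP-1B+/- 1 and 2. Apoe had 5.28 and 10.8 on AP-1B-/- 1 and 2, against 19.9 and 6.85 on AP-1B+/- 1 and 2. With 4 arrays and many probe sets searched, likeness is a description only.

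The sequence before the start of the members was examined because several of them shared an order of arrays. RefSeq windows (GRCm38.p6) were available for 7 of the 10 members, and the 250 bases before the start were searched on both strands for GAGGAA, a core motif of PU.1, the transcription factor that myeloid cells depend on. C1qb, Itgam and Cd68 held it, 3 of 7, where 23.3% of all 32851 such windows did. TTGCNNAA, a C/EBP-type motif, was found in 1 of 7 (Cd68), against 9.56% of all windows, and the AP-1 motif TGANTCA, named for a transcription factor unrelated to the adaptor, in 2 of 7 (Itgax and Cd68), against 6.75%. In Cd68, the only window with all 3, the matches did not overlap. The window of Itgax ended at 128129549, past the RefSeq start of that gene at 128129526, so its last bases lay within the gene. A match is not a binding site, and a window without one says only that these letters are not in it. As deposited, Lyz2 departed from the common order, as did Cx3cr1. The windows below are those of C1qb and Cd68, kept members with the motif, of Fcer1g, the member with the widest range, and of Lyz2. They are written 5′ to 3′ along the gene, with GAGGAA or its reverse complement in capitals, and the match in C1qb begins 30 bases before the start.
C1qb, chr4:136886201-136886450, minus strand: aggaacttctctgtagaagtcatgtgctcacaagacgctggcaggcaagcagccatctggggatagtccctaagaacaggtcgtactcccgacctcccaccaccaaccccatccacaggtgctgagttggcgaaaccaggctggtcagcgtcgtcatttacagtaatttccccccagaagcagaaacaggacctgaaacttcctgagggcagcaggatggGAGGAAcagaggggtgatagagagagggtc
Cd68, chr11:69666171-69666420, minus strand: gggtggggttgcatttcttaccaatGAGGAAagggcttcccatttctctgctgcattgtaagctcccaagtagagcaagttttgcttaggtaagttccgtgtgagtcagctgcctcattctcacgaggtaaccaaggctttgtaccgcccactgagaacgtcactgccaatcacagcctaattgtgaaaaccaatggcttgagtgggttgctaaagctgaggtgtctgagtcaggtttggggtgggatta
Fcer1g, chr1:171234350-171234599, minus strand: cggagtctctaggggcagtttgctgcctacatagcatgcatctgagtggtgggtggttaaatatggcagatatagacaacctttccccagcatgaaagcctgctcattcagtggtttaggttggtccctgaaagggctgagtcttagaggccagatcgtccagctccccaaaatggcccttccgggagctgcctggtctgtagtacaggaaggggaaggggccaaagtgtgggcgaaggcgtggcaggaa
Lyz2, chr10:117282273-117282522, minus strand: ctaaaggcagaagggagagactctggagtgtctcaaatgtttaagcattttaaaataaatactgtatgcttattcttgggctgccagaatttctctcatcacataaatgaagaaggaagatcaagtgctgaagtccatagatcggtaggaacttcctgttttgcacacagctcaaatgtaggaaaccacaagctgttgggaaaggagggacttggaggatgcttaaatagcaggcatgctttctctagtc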

How the data were processed

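RNA of 4 samples of small intestinal epithelium was hybridised to one-colour Affymetrix arrays. The deposited table held 1 intensity per probe set on a linear scale, made with MAS5 (no version stated) per the submitters' processing notes. Array medians between 0.996 and 0.998 show a rescaling to a median near 1 that the labels do not record. No detection calls were used, and precision is limited by the number of arrays.

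Gene names came from the platform's annotation table, with 34945 probe sets named for 1 gene, 932 for several and 9160 for none, and all 10 members were found by Entrez identifier in RefSeq (GRCm38.p6). Values were taken as log2(value + 0.321), the pseudocount being the 25th percentile of all values, and probe sets whose mean reached 0.983, the median of such means, were kept (22519). This scale makes the fold differences of dim genes smaller than they are. Groups were formed by label and tested with limma 3.58.1 in R 4.3.3 (intensity trend, Benjamini-Hochberg adjustment over all kept probe sets, threshold 0.05). On simulated data with the same number of arrays, the fit called nearly all known changes where the simulated spread between arrays was small. It called none where that spread was wider. Both simulated settings were centred on a narrower spread than the members had here (pooled within-label SD of the member median 1.17, log2 scale). A lack of calls thus does not show a lack of differences. Comparisons of 2 single arrays have no test, and a difference of at least 2-fold was counted. A gene of a list was represented by its brightest kept probe set.

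The members and lists were chosen with earlier results of these data known. Genes named were every probe set of the members, Ap1m2, the 2 brightest genes of each other list, 8 partners, ligands and markers of the members, and the 5 genes most like the members in pattern. Further list genes, among them Epcam, Cdh1, Cd14 and Cebpa, were named after their values were seen. The settings varied were the pseudocount, the filter, the normalization, the variance trend, a replicate block and each array left out. The crossed block and the fits with the doubted arrays left out were chosen after seeing the data. The replicate numbers share no stated litter, day or batch. Arrays shared identical values at no more than 0.144% of probe sets and were treated as 4 distinct samples.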

Additional observations from a re-analysis of the deposited data

How the results depend on the processing

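Depth cannot be read from these arrays, and 2 arrays a label limit every comparison. With the pseudocount, filter, normalization or variance trend varied, 0 probe sets passed in each fit except that on the brightest 25% of probe sets, where 1 passed, no member, and where only 3 member probe sets were tested, all 3 lower. With 1 array left out the number called ranged from 0 to 240, the member median from −1.20 to 0.41 and the number of lower members from 4 to 13. Log2 differences that changed sign with 1 array left out ranged from −1.94 to 0.74, −1.39 to 1.03 for Csf1r (1419872_at, 1419873_s_at), −3.57 to 0.047 for Fcer1g, −2.19 to 0.30 for Tyrobp, −0.32 to 1.27 for Cx3cr1, −1.08 to 0.44 for Itgax, −2.35 to 0.31 for C1qa, −1.53 to 0.41, −1.11 to 0.91 and −0.92 to 0.63 for the 3 probe sets of C1qb, and −1.79 to 1.22 for Ap1m2. Cx3cr1 also changed sign, to −0.27, with both doubted arrays left out. Lyz2, Cd68 and Csf1r (1423593_a_at) kept their sign in all of these. The median differences within labels stayed positive under every setting tried.

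Arrays of the same number deviated in opposite directions (correlation −0.51 over 22519 probe sets), and no label ties a number to an animal, litter or day. The numbers do follow the sex pattern, male for 1 and female for 2 in both labels, so the replicate block is also a block of sex. The replicate block called 0 probe sets by limma (145 at an unadjusted p under 0.05) and changed no call. A block of crossed numbers, chosen after seeing the data, also called 0 (1246 unadjusted).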

Other observations

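As deposited, some genes of the lists had values on both arrays of a label above or below both of the other label, unlike every member, and were singled out here after their values were seen. Irf8, a transcription factor of monocytes and dendritic cells, had 19.4 and 27.1 on the arrays labelled AP-1B-/-, against 19.4 and 17.97 on those labelled AP-1B+/-, with 19.417 as the lowest of the first and 19.384 as the highest of the second. After quantile normalization Irf8 had 16.5 and 33.2 on the arrays labelled AP-1B-/-, against 24.3 and 14.9 on those labelled AP-1B+/-, so the groups overlapped. Spi1, which encodes PU.1, had 1.26 and 1.59 on the arrays labelled AP-1B-/-, against 1.80 and 2.27 on those labelled AP-1B+/-. Itgb7, the beta7 integrin chain that retains lymphocytes in the epithelium, had 1.27 and 1.96 on the arrays labelled AP-1B-/-, against 0.661 and 0.219 on those labelled AP-1B+/-. Spi1 and Itgb7 stayed apart after quantile normalization. None of them passed the test (limma, adjusted p = 0.999868 for each), and groups did not overlap at 10.7% (lower) and 6.56% (higher) of all kept probe sets.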
